A study of Mus musculus with 6 samples.

Results

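The splicing factor genes described here are the SR proteins (Srsf), the heterogeneous nuclear ribonucleoproteins (Hnrnp), the CDC-like kinases (Clk), the CLK4-associating protein Clasrp, the LUC7-like proteins (Luc7l) and the serine/arginine repetitive matrix proteins (Srrm). Members were chosen by gene symbol, which gave 43 of the 24532 genes in the deposited table, namely 11 Srsf, 20 Hnrnp, 4 Clk, 3 Luc7l and 4 Srrm genes and Clasrp. They held 111 of the 36780 transcript entries, of which 97 are coding (RefSeq mRNA) and 14 are noncoding (RefSeq noncoding RNA), and 8 of the genes had entries of both kinds. The families were proposed with the ethanol against control results of these same libraries known, so their differences between the groups are given as a description and support nothing.

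The libraries hold mRNA of male mice, labelled WT, from the core of the nucleus accumbens, a ventral striatal region engaged in reward, with mixed cell types. The mice are called adolescent, at postnatal days 35 to 55, and the step at which they had that age is not given. In the protocol, contextual fear conditioning came first, then ethanol (20% v/v) given intraperitoneally 6 times within 6 h (1.8 g/kg, then 5 times 1.2 g/kg), extinction, and 27 days of drinking every other day, with tissue taken 24 h later. The titles gave 3 control and 3 ethanol libraries, here numbered 1 to 3 in each group. The treatment field reads ethanol for all 6 libraries, so the groups rest on the titles, and the injection given to controls is not named. Whether libraries came from separate animals is not given either, so the spread between them, which sets every p-value, may be technical.

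SR proteins bind exons through RNA recognition motifs and recruit the spliceosome through domains rich in arginine and serine, and the CLK and SRPK kinases phosphorylate those domains. Many hnRNP proteins bind the same transcripts and often act against SR proteins at splice sites. Genes of both families commonly limit their own output by including an exon that carries an early stop codon, or by keeping an intron in the transcript, and RNA with kept introns can be held in the nucleus. In neurons, splicing programmes controlled by these proteins shape ion channels and synaptic proteins.

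The segments that separate noncoding from coding entries are shown for Clk1, whose noncoding share of reads differed most between the groups among these 8 genes, and for added exons of Srsf3, Srsf7 and Luc7l as examples. Segments of other genes are given by position. The table gives lengths and ends but no exons, so each segment was identified from the length difference and the GENCODE M21 models on GRCm38 (mm10). Of the 14 noncoding entries, 12 shared both ends with a coding entry of the same gene. From at least 1 such coding entry, 8 of these differed by exactly the length of 1 annotated exon or of 1 or 2 introns.

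The longest noncoding entry of Clk1 has 3088 bases against 1830 in the coding entry. The difference of 1258 bases equals intron 3 (871 bases, chr1:58420212-58421082) plus intron 4 (387 bases, chr1:58419734-58420120) on the minus strand. The other noncoding entry, of 1739 bases, is 91 bases shorter, the length of exon 4 (chr1:58420121-58420211). Exon 12 also has 91 bases, but the annotated Clk1 model that GENCODE pairs with this entry lacks exon 4. That model was not found to skip exon 12. The entry of 3088 bases is paired with a coding model in which both introns are spliced out. Its match therefore rests on length and shared ends. Exon 4 and the borders of its flanking introns are shown because these are the bases that the 3 Clk1 entries keep or lose. Capitals mark exon and lower case marks intron. The runs are chr1:58421043-58421102, chr1:58420081-58420251 and chr1:58419713-58419773, each 5′ to 3′ on the minus strand, taken from GENCODE M21 transcripts. The last 3 capitals of the exon 5 run are the stop codon that the model without exon 4 reaches.
Clk1 end of exon 3 and start of intron 3: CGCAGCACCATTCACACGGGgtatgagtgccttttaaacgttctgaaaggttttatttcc
Clk1 exon 4 with 40 bases of intron on each side: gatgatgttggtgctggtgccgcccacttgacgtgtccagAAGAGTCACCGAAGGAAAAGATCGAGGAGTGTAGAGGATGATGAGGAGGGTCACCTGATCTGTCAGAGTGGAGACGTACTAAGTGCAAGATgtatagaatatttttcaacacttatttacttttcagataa
Clk1 end of intron 4 and start of exon 5: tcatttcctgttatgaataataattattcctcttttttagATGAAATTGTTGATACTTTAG

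The noncoding entries of Srsf3 and Srsf7 matched an added exon inside intron 3 of each gene. The Srsf7 match held only against its coding entry of 2279 bases, not against the main one of 2288 bases. The added exon has 456 bases in Srsf3 (chr17:29039454-29039909, plus strand) and 460 bases in Srsf7 (chr17:80204622-80205081, minus strand). Each is shown from its first base to the stop codon that its GENCODE model carries, with the stop codon in capitals, at chr17:29039454-29039487 and chr17:80205054-80205081. The shorter noncoding entry of Luc7l matched an added exon of 71 bases in intron 1 (chr17:26253974-26254044, plus strand), shown whole.
Srsf3 added exon up to its stop codon: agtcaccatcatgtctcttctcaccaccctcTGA
Srsf7 added exon up to its stop codon: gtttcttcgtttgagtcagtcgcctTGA
Luc7l added exon: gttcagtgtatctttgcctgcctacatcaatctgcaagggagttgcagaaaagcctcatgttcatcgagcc

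Other matched segments were intron 15 of Clasrp (253 bases, chr7:19584531-19584783), an exon of 90 bases in Srsf9 (chr5:115331450-115331539) and an exon of 136 bases in Hnrnpa2b1 (chr6:51461920-51462055). The Hnrnpa2b1 match held only against its coding entry of 2144 bases, not against the main one of 2264 bases. GENCODE pairs the matched Clasrp and Srsf9 entries with coding models that lack the kept intron or added exon. Those matches rest on length and shared ends. The remaining Clasrp noncoding entries, the longer Luc7l one and that of Hnrnpa1 had no segment of matching length or did not share both ends.

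The libraries held 35898026 to 67399599 estimated reads. At this depth 3 reads correspond to 0.0445 to 0.0836 CPM (counts per 1000000 reads), a limit that covers counting error only. All 43 genes passed the filter on low counts, and the smallest count of any of them in a library was 466 reads. Control 2 stood apart from the other 5 libraries on the first principal component, which held 35.7% of the variance, and had the fewest genes with reads (15924 against 17096 to 17707). All 13 markers of medium spiny neurons, the principal neurons of this region, passed the filter, and Ppp1r1b, which encodes the phosphatase inhibitor DARPP-32, lay between 486 and 1156 CPM.

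No gene passed an adjusted p of 0.05 in edgeR's quasi-likelihood test (0 of 15774, percentage called 0.0, smallest adjusted p 0.412), and limma-voom also called 0. DESeq2 called 93 genes lower in ethanol (0.59%) and 51 higher (0.323%). Among the splicing factors edgeR called 0 (smallest adjusted p 0.419), limma-voom 0 and DESeq2 2, Clasrp and Clk4, both lower. At an unadjusted p under 0.05 edgeR gave 10 members lower, against 5.34% of all genes, and 0 higher, against 5.31%. Of the 43 members, 33 had a lower fitted level in ethanol and 10 a higher one, beside 47.3% lower among all genes. Their log2 fold changes had a median of -0.22 and a range of -1.14 to 0.27, and that of all genes was 0.02. In 15 members all 3 ethanol libraries lay below all 3 controls, which held for 8.41% of all genes, and in 0 members all lay above, which held for 9.35%. Nothing is read from these shares, because the members were proposed from this contrast. In this bulk RNA, fewer cells of a type and less RNA per cell cannot be told apart.

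Summed over the members, the level was 6068, 5589 and 5782 CPM in control 1, 2 and 3, and 4429, 5048 and 5472 CPM in ethanol 1, 2 and 3. The sums of the ethanol libraries were all below those of the controls, and ethanol 1 was the lowest. Ethanol 1 was the lowest of the 6 libraries for 26 of the 43 members (60.5%), a position it held for 22.6% of all genes. Without that library the median of the members was -0.14, and 12 of the 26 members with a log2 difference of at least 0.2 in size shrank by over 1.5 times.

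**Figure D1:**
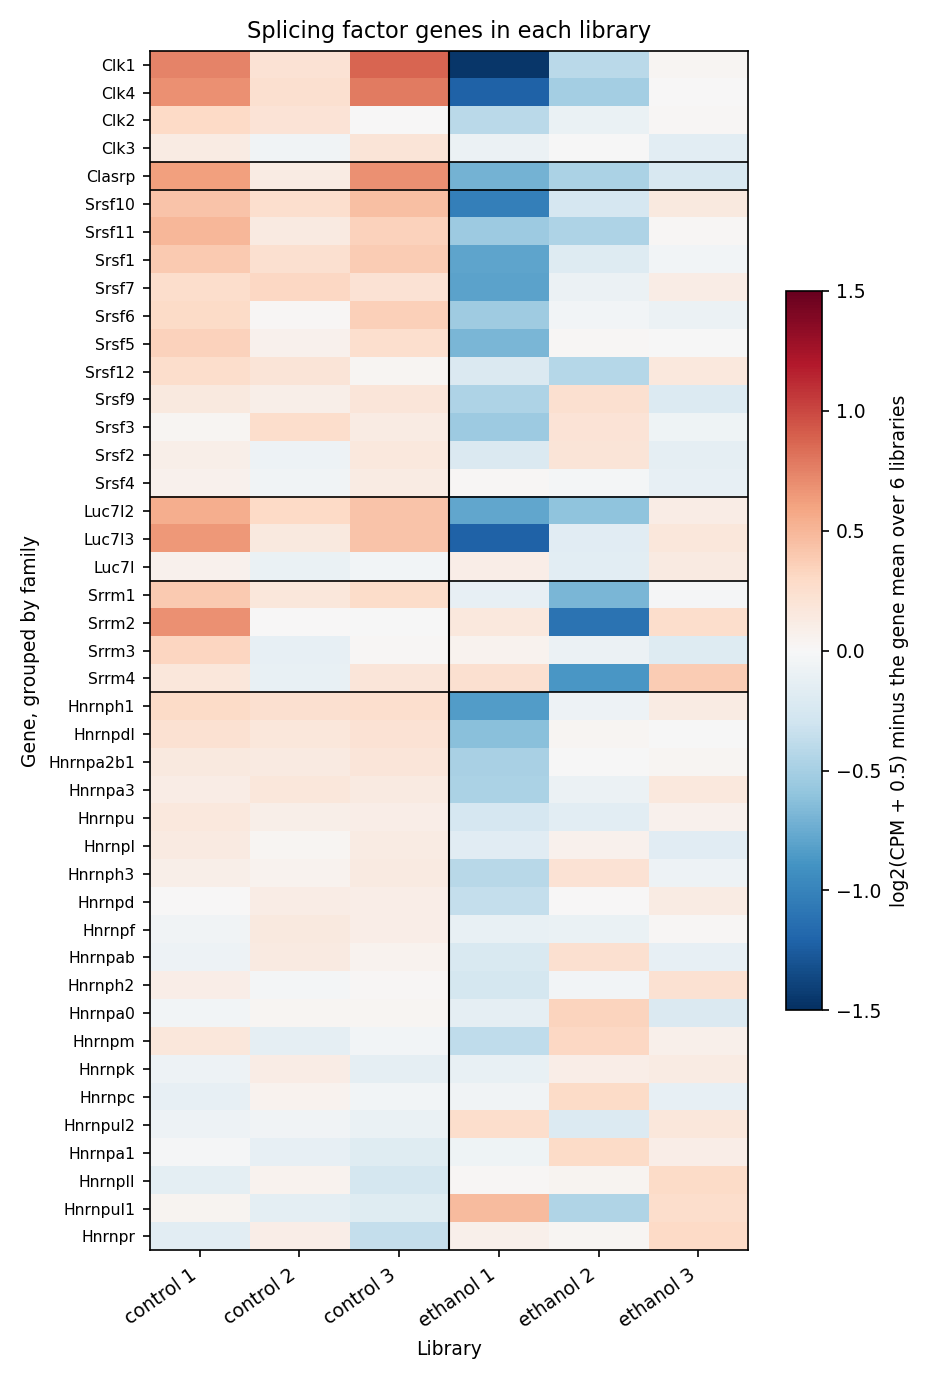
Heat map of the 43 splicing factor genes (vertical, grouped by family and ordered by fold change within it) in the 6 libraries (horizontal). Colour is log2(CPM + 0.5) minus the gene's mean over the libraries, with blue below and red above the mean, and the ethanol 1 column is the bluest for 26 of the genes.

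The CLK kinases and their partner Clasrp stood at lower mean levels in ethanol. All 4 Clk genes were lower, at a median of -0.71 on the log2 scale, beside 47.3% lower among all genes. In Clk1 and Clk4 all ethanol libraries lay below all controls, against 8.41% of all genes. Nothing is read from these shares. Clk1, which phosphorylates SR proteins in the nucleus, stood at 116, 80.5 and 127 CPM in the controls and at 24.7, 52.0 and 70.3 CPM in ethanol 1, 2 and 3. Every ethanol library was below every control, and the means were 108 ± 24.4 and 49.0 ± 22.9 CPM (SD, n = 3 each). The fitted log2 fold change was -1.14 (SE 0.34), and it was -0.82 without ethanol 1 and -1.49 without ethanol 3. It turned to 0.51 when only the coding entry of Clk1 was counted.

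Clk4, a close relative of Clk1, had 56.5, 41.3 and 60.3 CPM in the controls and 14.7, 24.3 and 35.0 CPM in ethanol. Again the groups did not overlap, and ethanol 1 was lowest (log2 fold change -1.10, SE 0.29). The Clk4 value was -0.83 without ethanol 1, -1.43 without ethanol 3 and -0.83 with GC and length trends removed. All Clk4 entries are coding, and the main one, of 1955 bases, went from a control mean of 48.9 ± 7.55 to an ethanol mean of 22.0 ± 10.4 CPM (SD, n = 3 each, log2 fold change -1.16). Clk2 had 34.4, 32.1 and 27.9 CPM in the controls and 20.9, 25.95 and 28.2 CPM in ethanol, so ethanol 3 lay inside the control range (-0.33, SE 0.18). Without ethanol 1 the Clk2 value was -0.22. Clk3 had 86.0, 76.1 and 90.7 CPM against 74.3, 78.9 and 70.7 CPM, with overlapping groups (-0.17, SE 0.15). The 4 kinases thus covered a range from near -0.2 in Clk3 to below -1 in Clk1 and Clk4.

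Clasrp, an SR-like protein that binds CLK4, had 136, 96.3 and 143 CPM in the controls and 54.0, 63.3 and 74.7 CPM in ethanol. The lowest control was above the highest ethanol library, with means of 125 ± 25.1 and 64.0 ± 10.3 CPM (SD, n = 3 each) and a log2 fold change of -0.96 (SE 0.20). Leaving out any 1 library kept the value between -1.12 and -0.86. With the coding entry alone it was -0.64, and that entry had overlapping groups (28.8, 14.7 and 33.2 against 13.6, 17.7 and 18.7 CPM).

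All 11 Srsf genes had lower fitted levels in ethanol, beside 47.3% of all genes. Their values ran from -0.69 in Srsf10 to -0.09 in Srsf4, with a median of -0.42. In 6 of them all ethanol libraries lay below all controls, against 8.41% of all genes. Ethanol 1 was the lowest library for 9, against 22.6% of all genes, and nothing is read from these shares. Their summed level was 1145, 1039 and 1140 CPM in the controls and 670.2, 945.3 and 930.8 CPM in ethanol. The count of 11 of 11 held in all 14 alternative analyses. The median moved to -0.25 without ethanol 1.

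The 4 Srsf genes with the largest differences were Srsf10, Srsf11, Srsf1 and Srsf7. Srsf10, an SR protein that represses splicing when dephosphorylated, had 54.3, 47.6 and 54.7 CPM in the controls and 19.4, 33.7 and 44.4 CPM in ethanol. Its groups did not overlap (-0.69, SE 0.27), and without ethanol 1 the value was -0.42. Srsf11, which takes part in neuronal microexon inclusion, had 101, 78.8 and 91.2 CPM against 49.0, 51.7 and 72.2 CPM. Here ethanol 1 and 2 were alike and ethanol 3 lay nearer the controls (-0.65, SE 0.20). Srsf1, a general splicing activator that also acts in export and translation, had 164, 147 and 162 CPM against 71.6, 109 and 121 CPM. All ethanol values were below the controls (-0.65, SE 0.21). Srsf7, which also acts in mRNA export, had 85.4, 88.6 and 82.3 CPM against 40.5, 66.6 and 76.6 CPM. Control values were close together and the ethanol libraries spread more widely (-0.48, SE 0.23), and the difference was -0.25 without ethanol 1 and -0.31 with GC and length trends taken out.

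Srsf5 and Srsf2 had the highest levels per transcript length in the family, with mean FPKM (reads scaled by transcript length and library size, summed over a gene's entries) of 87.7 and 51.3 over the 6 libraries. Srsf5 had 206, 169 and 192 CPM in the controls and 100.5, 163 and 161 CPM in ethanol, with no overlap and ethanol 1 far below the other 2 ethanol libraries (-0.42, SE 0.21). The Srsf5 value was -0.22 without ethanol 1 and -0.19 after GC and length trends were removed. Srsf2, a component of nuclear speckles, had 125, 111 and 131 CPM against 101, 135 and 107 CPM, where ethanol 2 was the highest of all libraries (-0.10, SE 0.17). Srsf3, which acts in splicing and mRNA export, had 118, 138 and 126 CPM against 78.8, 133 and 109.9 CPM, with overlapping groups (-0.25, SE 0.20). Removing GC and length trends gave -0.04 for Srsf3, and the value was -0.07 without ethanol 1 and -0.44 without ethanol 2. Srsf9 had 45.9, 43.9 and 46.9 CPM against 29.9, 48.7 and 35.8 CPM, so ethanol 2 exceeded every control (-0.26, SE 0.20). The Srsf9 value was -0.11 without ethanol 1, -0.49 without ethanol 2 and -0.08 with the coding entry alone. Srsf6 (-0.44), Srsf12 (-0.32) and Srsf4 (-0.09) were the other members, and Srsf12 lay between -0.50 and -0.20 when single libraries were left out.

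**Figure D2:**
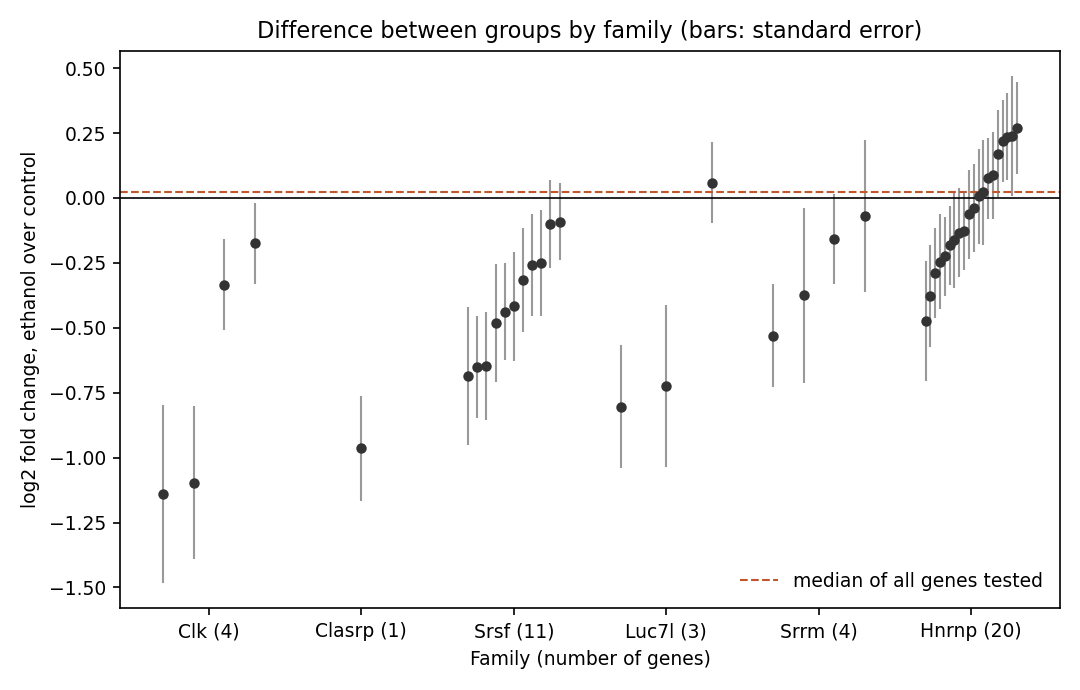
Fitted log2 fold change of each gene, ethanol over control (vertical axis), with bars of 1 standard error, grouped by family (horizontal axis, number of genes in brackets). The solid line is 0 and the dashed line is the median of all genes tested, 0.02. All Srsf points lie below 0, while the Hnrnp points lie on both sides.

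The Luc7l proteins associate with the U1 snRNP and take part in choosing the splice site at the start of an intron. Luc7l2 had 154, 129.8 and 143 CPM in the controls and 61.1, 69.3 and 114 CPM in ethanol. Its groups did not overlap, with ethanol 3 nearest the controls (-0.80, SE 0.24). Luc7l3 had 117, 82.5 and 101 CPM against 31.8, 66.0 and 84.0 CPM, where ethanol 3 lay just above control 2 (-0.72, SE 0.31). Without ethanol 1 the Luc7l3 value was -0.41. Luc7l had 103, 92.0 and 95.9 CPM against 106, 88.8 and 109 CPM, and its groups overlapped (0.06, SE 0.16). Scaling by total counts alone turned Luc7l to -0.02.

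The Srrm proteins are large factors of nuclear speckles (Srrm1 and Srrm2) or regulators of neuronal microexons (Srrm3 and Srrm4). Ethanol 2 was the lowest library for 3 of the 4, against 23.9% of all genes. Ethanol 1 was the lowest for 0, against 22.6%, and nothing is read from these shares. Srrm1 had 134, 115 and 124 CPM in the controls and 94.3, 63.6 and 101 CPM in ethanol, with no overlap (-0.53, SE 0.20). Srrm2 had 551, 344 and 341 CPM against 381, 159 and 413 CPM, so control 1 was far above and ethanol 2 far below the other 4 libraries (-0.37, SE 0.34). The Srrm2 difference was -0.06 without ethanol 2, -0.11 without control 1 and -0.60 without ethanol 3. Srrm3 had 65.3, 47.7 and 52.8 CPM against 54.1, 49.0 and 45.4 CPM, with overlap (-0.16, SE 0.17), and was -0.02 without control 1. Srrm4 had 31.5, 25.8 and 31.6 CPM against 33.2, 15.02 and 36.5 CPM, with both the highest and the lowest value in ethanol (-0.07, SE 0.29). It turned to 0.22 without ethanol 2.

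The Hnrnp genes were divided, with 11 of 20 lower and 9 higher in ethanol, beside 47.3% lower among all genes, and a median of -0.05. Their summed level was 3338, 3387 and 3305 CPM in the controls and 2809, 3348 and 3360 CPM in ethanol, so only ethanol 1 lay outside the control range. In 4 of the 20 all ethanol libraries were below all controls, against 8.41% of all genes. In 0 all were above, against 9.35% of all genes. The family median was -0.17 without ethanol 2 and 0.04 without ethanol 1.

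Hnrnph1, which binds runs of G and affects nearby splice sites, had 203, 197 and 199 CPM in the controls and 93.0, 158 and 180.3 CPM in ethanol. The controls differed by only a few CPM and all ethanol libraries were lower (-0.47, SE 0.23). The Hnrnph1 difference was -0.24 without ethanol 1 and -0.11 after GC and length trends were removed. Hnrnpdl had 147, 141 and 146 CPM against 81.0, 129 and 125 CPM, again with the lowest level in ethanol 1 (-0.38, SE 0.20), and was -0.19 without it. Hnrnpa2b1, a splicing repressor that also carries RNA into dendrites, had 354, 352 and 364 CPM against 229, 321 and 327 CPM. The groups did not overlap (-0.29, SE 0.18), and the value was -0.14 without ethanol 1 and -0.18 with the coding entries alone. Hnrnpa3 had 219.7, 229 and 223 CPM against 147, 191 and 228 CPM, with ethanol 3 among the controls (-0.25, SE 0.18). It was -0.09 without ethanol 1, -0.40 without ethanol 3 and -0.01 with GC and length trends removed. Hnrnpu, a nuclear scaffold protein, was the other gene with no overlap (-0.22). Removing GC and length trends turned Hnrnpu to 0.09.

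Hnrnpr, which binds actin mRNA in axons, had 53.6, 64.6 and 46.8 CPM in the controls and 63.4, 61.3 and 74.3 CPM in ethanol, with overlap (0.27, SE 0.18). Removing GC and length trends gave 0.65 for Hnrnpr, and leaving out control 3 gave 0.16. Hnrnpul1 had 88.2, 77.5 and 75.5 CPM against 119, 62.8 and 103 CPM, with ethanol 2 the lowest library (0.24, SE 0.23). Removing GC and length trends gave 0.12, and the value was 0.04 without ethanol 1 and 0.45 without ethanol 2. Hnrnpa1, a splicing repressor, had 185, 173 and 165 CPM against 179, 229.7 and 200.4 CPM, with only ethanol 1 inside the control range (0.22, SE 0.16). The Hnrnpa1 value was 0.33 with coding entries alone and 0.11 without ethanol 2. Hnrnpk, which binds runs of C, had 342, 389.8 and 329 CPM against 334, 389 and 394 CPM (0.08, SE 0.16), and total-count scaling turned it to -0.0044. By length-scaled level the most abundant members were Hnrnpa2b1 and Hnrnpk, with mean FPKM of 119 and 106, and the least abundant were Srrm4 and Srsf12, with 3.20 and 4.41.

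At the level of single entries, 22527 transcripts were tested and edgeR called 0 (0.0%, smallest adjusted p 0.292), limma-voom 0 and DESeq2 357 (1.61%). Among the members edgeR called 0 entries, with unadjusted p under 0.05 for 5 of 14 noncoding and 8 of 93 coding ones. That p was reached by 7.72% of all noncoding and 6.46% of all coding entries tested, and nothing is read from these shares either. DESeq2 called 1 of each kind. Its coding call was the Hnrnpk entry of 2781 bases, at 14.1, 13.8 and 12.8 CPM in the controls and 21.7, 19.7 and 25.2 CPM in ethanol (0.71, SE 0.18). Its noncoding call was the Clasrp entry of 2181 bases, at 43.6, 35.2 and 39.1 against 17.9, 21.1 and 21.4 CPM (-0.97, SE 0.16). Transcript CPM are scaled within the transcript table, and reads shared by entries of a gene were divided by the authors' estimation, so entries of 1 gene are not independent of each other.

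All 14 noncoding entries of the members had a lower fitted level in ethanol, with a median of -0.82, and 6 had no overlap between groups. The 14 entries came from 8 genes, and Clasrp alone held 5 of them. The Clasrp entries of 2181, 2294 and 2430 bases were among the 6 without overlap, that of 2294 bases at 13 to 69 reads. Noncoding entries of all genes were also lower in 64.5% of 1515, with a median of -0.24, and all ethanol libraries lay below all controls in 15.1%. Of the 97 coding entries of the members 93 passed the filter, of which 63 were lower and 30 higher, with a median of -0.18. For coding entries of all genes 45.7% were lower and the median was 0.05. In 12 member coding entries all ethanol libraries were below all controls, against 6.52% of all coding entries. In 4 all were above, against 9.30%. Without a single library 12 to 14 of the noncoding entries stayed lower. The exon-skipped Clk1 entry turned higher without control 2 and without ethanol 1, the Srsf3 entry without control 1, and the shorter Luc7l entry without control 3. A Clasrp entry of 2392 bases, at 0.33, 12.9 and 0.25 CPM in the controls, turned higher without control 2, in limma-voom and in the fit with a replicate block.

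The coding and noncoding entries of Clk1 differed in direction. The entry that matches kept introns 3 and 4 had 97.5, 66.7 and 113 CPM in the controls, from 5591, 2593 and 4158 estimated reads. In ethanol it had 12.1, 30.3 and 47.2 CPM, from 747, 1251 and 1736 reads. The means were 92.5 ± 23.7 and 29.8 ± 17.5 CPM (SD, n = 3 each) and the log2 fold change was -1.63 (SE 0.52), which ranged from -2.12 to -1.25 when single libraries were left out. The coding entry had 15.5, 6.54 and 11.4 CPM in the controls and 11.7, 18.6 and 18.2 CPM in ethanol, so ethanol 2 and 3 were the highest libraries and ethanol 1 lay among the controls (0.54, SE 0.39). Its value was 0.27 without control 2 and 0.85 without control 1. The entry without exon 4 had 3.64, 6.46 and 2.07 CPM against 1.31, 2.83 and 5.79 CPM and overlapped (-0.30, SE 0.70), with a range of -0.97 to 0.21 when single libraries were left out.

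**Figure D3:**
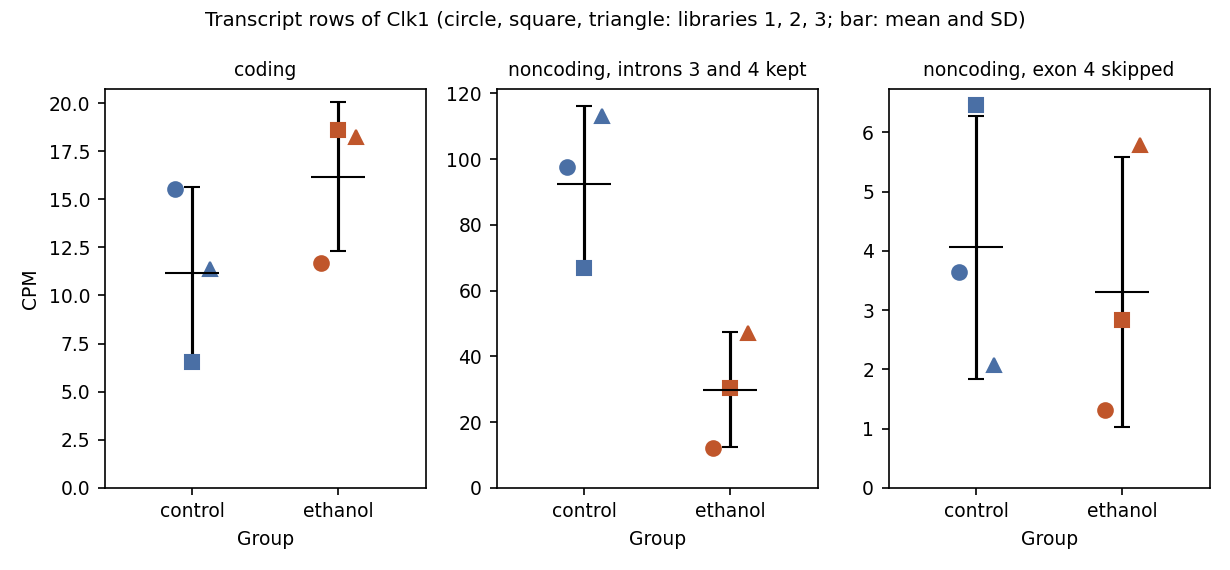
Level of the 3 Clk1 transcript entries in CPM (vertical axes, each from 0 and on its own scale) in control and ethanol libraries, with markers for libraries 1, 2 and 3 and bars for the mean and SD. The intron-keeping entry lies between 66.7 and 113 CPM in the controls and between 12.1 and 47.2 CPM in ethanol, while the coding entry overlaps between the groups.

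The noncoding share of a gene is the percentage of its estimated reads that fell in noncoding entries. For Clk1 it was 86.7%, 91.8% and 91.0% in the controls and 53.4%, 64.0% and 74.4% in ethanol. The groups did not overlap, with means of 89.8% ± 2.76 and 63.9% ± 10.5 (SD, n = 3 each), a difference of -25.9 percentage points. Among 338 genes whose mean share lay between 5% and 95%, 40 had a more negative difference, so that Clk1 ranked 41. Of the 8 member genes with both kinds of entry, 7 had a lower mean share in ethanol and 3 had no overlap (Clk1, Hnrnpa2b1 and Clasrp). Among the 338 genes, a range that includes all 8 members, 55.9% had a lower mean, 9.47% had all ethanol libraries below all controls, and the median difference was -1.84 points. Over all 549 genes with both kinds these values were 50.6%, 8.38% and -0.037 points.

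Hnrnpa2b1 had a noncoding share of 19.8%, 21.7% and 24.9% in the controls and 11.7%, 16.8% and 16.6% in ethanol, a difference of -7.08 points. Its noncoding entry had 70.2, 75.6 and 90.2 CPM against 27.1, 53.5 and 54.9 CPM (-0.80, SE 0.30), with no overlap, and this value was -0.54 without ethanol 1. Clasrp had shares of 78.9%, 84.5% and 76.7% against 75.1%, 71.9% and 75.3%, a difference of -5.92 points that was -3.66 points without control 2. In Clasrp, then, coding and noncoding entries were both lower in ethanol, and the entry that matches a kept intron 15 had 29.9, 18.3 and 40.9 against 11.6, 11.5 and 17.3 CPM (-1.15, SE 0.36).

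Hnrnpa1 had noncoding shares of 22.9%, 16.3% and 23.1% in the controls and 7.602%, 13.0% and 19.7% in ethanol, with overlap. Its coding entry of 1801 bases had 31.0, 21.4 and 7.35 CPM against 59.6, 58.3 and 44.9 CPM, so that all ethanol libraries were above all controls (1.45, SE 0.52). The Hnrnpa1 coding entry of 1960 bases, which held most of the reads, differed by 0.05 (SE 0.13), with a range of -0.06 to 0.13 when single libraries were left out and -0.04 under total-count scaling. Srsf7 had shares of 32.2%, 17.4% and 26.6% against 16.6%, 13.1% and 26.5%, and its added-exon entry differed by -0.85 (SE 0.50) with overlapping groups, a value of -0.56 without ethanol 1 and -1.48 without ethanol 3. Srsf9 had 55.3%, 45.5% and 48.6% against 41.8%, 36.1% and 52.4%. Its added-exon entry had 25.5, 19.8 and 22.7 against 12.7, 17.4 and 19.0 CPM, with no overlap (-0.47, SE 0.23). Luc7l had shares of 7.99%, 5.76% and 10.5% against 4.49%, 5.54% and 6.01%. Srsf3 was the exception in direction, with 14.2%, 5.92% and 10.03% against 12.7%, 8.18% and 11.01% (0.58 points), and its stop-codon exon entry differed by -0.18 (SE 0.32). That entry was at 0.09 without control 1 and at -0.41 without control 2. Without control 2 or without ethanol 1 the Srsf3 difference in share was -1.47 and -0.44 points.

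**Figure D4:**
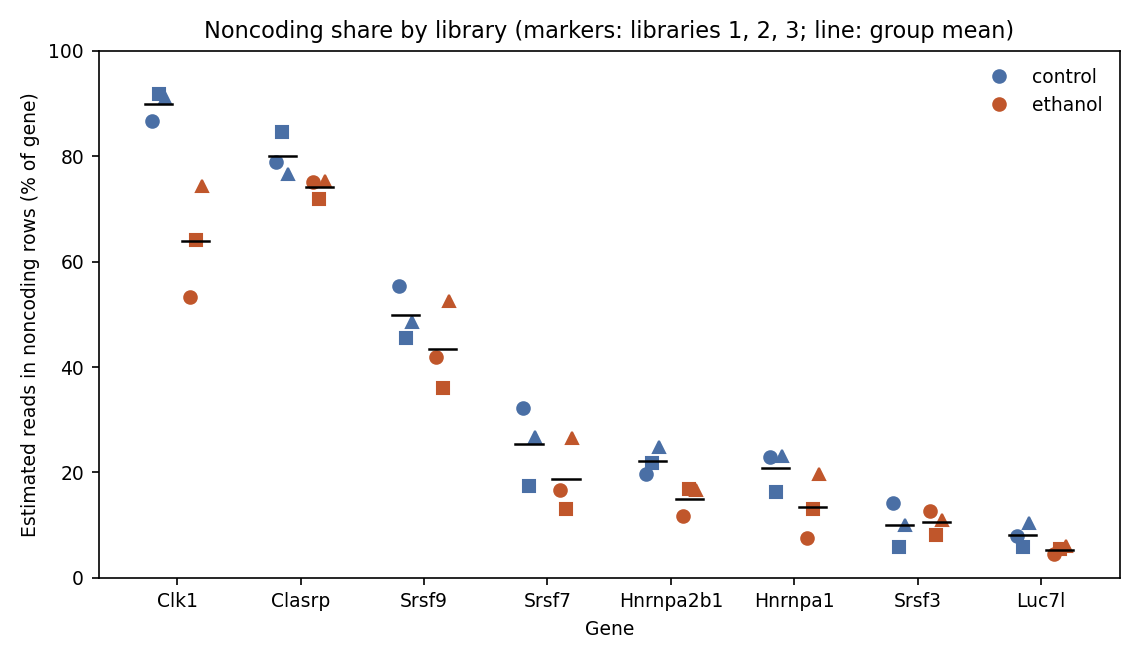
Percentage of each gene's estimated reads in noncoding entries (vertical axis, 0 to 100) for the 8 splicing factor genes with both kinds of entry, ordered by the control mean. Blue markers are control and orange markers ethanol libraries 1, 2 and 3, and lines are group means. Clk1 lies between 86.7% and 91.8% in the controls and between 53.4% and 74.4% in ethanol.

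Other measures of the libraries are given beside these values. The overall noncoding share was lowest in ethanol 2 and the summed members in ethanol 1 (4429 CPM). The summed nuclear-retained RNAs were close in these libraries, at 1843 CPM in ethanol 1 and 1753 CPM in ethanol 2. Of the 8 RNAs, 4 were lowest in ethanol 1 and 4 in ethanol 2, against 22.6% and 23.9% of all genes. Over all genes with both kinds of entry, the noncoding share of reads was 17.1%, 15.5% and 15.8% in the controls and 15.2%, 12.9% and 15.4% in ethanol. All 8 listed nuclear-retained long noncoding RNAs were lower in ethanol (median -1.07), beside 47.3% of all genes. In 4 of them all ethanol libraries lay below all controls, against 8.41% of all genes. At an unadjusted p under 0.05 edgeR gave 6 lower, against 5.34% of all genes. EdgeR called 0 and DESeq2 4, where DESeq2 called 0.59% of all genes lower. The list was chosen with earlier results of these data known, so nothing is read from these shares. The sum of the 8 RNAs was 6178, 3818 and 4841 CPM against 1843, 1753 and 3833 CPM. Neat1, the RNA scaffold of paraspeckles, had 199, 169 and 211 CPM in the controls and 72.4, 78.0 and 124 CPM in ethanol, with no overlap (-1.08, SE 0.22). Malat1, an RNA of nuclear speckles, had 273, 163 and 185 CPM against 119, 82.1 and 236 CPM, with overlap (-0.51, SE 0.36), and lay between -1.04 and -0.23 when single libraries were left out. Mirg (-1.16, SE 0.28) and Snhg11 (-1.29, SE 0.36) were the others with the smallest unadjusted p. Unlike Neat1, Malat1 and Mirg, Snhg11 also had a value with coding entries alone (-1.30), so the deposited data hold it at least partly as coding. The part of nuclear RNA content in the values of the splicing factors was not tested.

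Markers of cell types also differed between the libraries. Among all genes 47.3% were lower in ethanol. These lists, too, were chosen with earlier results of these data known, so nothing is read from their counts. Of 13 medium spiny neuron markers 2 were lower (median 0.39), with sums of 1901 to 2282 CPM in the controls and 2027 to 3949 CPM in ethanol. Of 9 cortical glutamatergic markers 8 passed the filter and 7 were lower (median -0.50), with sums of 123.4 to 392 CPM against 50.0 to 132 CPM, and Emx1 was at 0 in 1 library. All 10 meningeal fibroblast markers were lower (median -0.53, sums 60.0 to 108 against 47.1 to 57.4 CPM). In 2 of these 10 all ethanol libraries lay below all controls, against 8.41% of all genes. Of 7 choroid plexus markers 4 were lower (median -0.10), with sums of 21.0, 28.9 and 421 CPM in the controls against 20.2 to 32.9 CPM, and Folr1, Kcnj13 and Aqp1 were each at 0 in at least 1 library. Oligodendrocyte markers were lower in 8 of 10 (median -0.13, sums 20510 to 24250 against 17120 to 22360 CPM). Astrocyte markers were lower in 1 of 7 (median 0.29, sums 1858 to 2223 against 2198 to 2792 CPM). Microglia markers were lower in 2 of 7 (median 0.27, sums 366 to 471 against 385 to 597 CPM). The part of cell composition in the values of the splicing factors was not tested.

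Other genes of the splicing machinery were counted from lists. The lists were chosen with earlier results of these data known, so nothing is read from their counts. At an unadjusted p under 0.05 edgeR gave 5.34% of all genes lower and 5.31% higher. DESeq2 called 0.59% of all genes lower and 0.323% higher. Of 23 other proteins with arginine/serine domains and SR protein kinases, 14 were lower (median -0.20, 0 called by edgeR, 3 lower and 0 higher at an unadjusted p under 0.05, 1 called by DESeq2). Srpk3, an SR protein kinase, had 11.8, 8.52 and 13.3 CPM in the controls and 4.30, 5.04 and 6.41 CPM in ethanol, without overlap (-1.09, SE 0.25). Tra2a, an SR-like activator of exons, differed by -0.62 (SE 0.24) and Srek1 by -0.78 (SE 0.30). Tra2a was at -0.39 without ethanol 1, and Srek1 at -1.24 without ethanol 3. Of 60 core spliceosome genes 28 were lower (median 0.04, 0 called by edgeR and DESeq2, 4 lower and 4 higher at an unadjusted p under 0.05), and the median was -0.10 without ethanol 2. Snrnp70, the U1 protein that contacts SR proteins, had 409, 279.9 and 333 CPM against 217, 233 and 267 CPM, without overlap (-0.51, SE 0.18), and turned to 0.43 with coding entries alone. Prpf38b (-0.57, SE 0.19, and -0.26 with GC and length trends removed) was lower and Dhx15, a helicase that takes spliceosomes apart, was higher (0.49, SE 0.17).

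Of 9 minor spliceosome genes 6 were lower (median -0.12, 0 called by edgeR and DESeq2, 1 lower and 0 higher at an unadjusted p under 0.05), with Rnpc3 at -0.82, Snrnp48 at -0.69 and Zcrb1 at -0.52. Leaving out single libraries gave -1.44 to -0.53 for Rnpc3, and removing GC and length trends gave -0.33. Without ethanol 1 Snrnp48 was at -0.41 and Zcrb1 at -0.31, and Zcrb1 was at -0.88 without ethanol 2. Of 31 neuronal and tissue-specific splicing regulators 24 were lower (median -0.18, 0 called by edgeR, 1 by DESeq2, 5 lower and 2 higher at an unadjusted p under 0.05). Tia1, which binds U-rich sequences beside weak splice sites, had 83.1, 60.3 and 85.1 CPM against 20.3, 29.2 and 54.4 CPM, without overlap (-1.14, SE 0.33). Its paralog Tial1 differed by -0.72 (SE 0.23) and Rbm5 by -0.43 (SE 0.17). Of 24 hnRNP-related proteins under other symbols 17 were lower (median -0.10, 0 called by edgeR and DESeq2, 3 lower and 0 higher at an unadjusted p under 0.05), led by Safb2 (-0.55), Dazap1 (-0.40) and Taf15 (-0.41). Of 15 genes of nonsense-mediated decay and the exon junction complex 8 were lower (median -0.0054, 0 called by edgeR and DESeq2, 1 lower and 0 higher at an unadjusted p under 0.05). Upf3b, which links the exon junction complex to decay, differed by -0.61 (SE 0.24), Magoh by -0.53 (SE 0.28) and Smg8 by 0.40 (SE 0.22). Without ethanol 1 these values were -0.39, -0.28 and 0.16. Magoh was at -0.88 without ethanol 2 and at -0.21 with GC and length trends removed.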

How the data were processed

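Per the file headers, the authors deposited 1 table with a read count, here an estimated count, and an FPKM value for each RefSeq transcript in each library. The submitters' processing notes name mm10 and bcl2fastq, while aligner, counting tool and strand setting are not given in those sources. Each count equalled FPKM times length times library size rounded up, within 0.05 reads, for 100% of transcripts with at least 5 reads, so the deposited counts are estimates divided among entries, and paralogs and overlapping genes are uncertain. The rounding can add 1 read to a transcript.

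Counts were summed by gene identifier (10 identifiers carried 2 symbols). Genes passing filterByExpr (minimum count 10) were scaled with TMM factors and compared, group as the only term, by the two-sided quasi-likelihood test of edgeR 4.0.16 in R 4.3.3, with Benjamini-Hochberg adjustment over all genes tested and a threshold of 0.05. The biological coefficient of variation was 0.252. CPM are per 1000000 reads of the scaled library. SE is the size of the log2 fold change over the square root of F. The test was also tried on data simulated with the spread fitted to these libraries, which cannot show where that spread comes from. No result here rests on that trial. The noncoding share used genes with at least 10 reads in every library. FPKM gave levels per length and an alternative share. Alternatives were DESeq2 1.42.0, limma 3.58.1, other scalings and filters, coding entries only, a replicate block, removal of GC and length trends (both known for 99.2% of genes) and leaving out each library. Figures used matplotlib 3.10.9.

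The members, the gene lists and the rule for named genes were chosen with earlier results of these data known. The rule gave values per library for Clasrp, every Clk, Luc7l and Srrm gene, the 4 Srsf and 6 Hnrnp genes with the largest differences, the 2 of each with the highest FPKM, and genes with a noncoding share of at least 5%, and from each list the 3 genes with the smallest unadjusted p.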

Additional observations from a re-analysis of the deposited data

How the results depend on the processing

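Across the 14 alternatives the members had 31 to 37 lower fitted levels, a median of -0.30 to -0.14, and 0 calls except under DESeq2, which called 2 members, 1 coding and 1 noncoding transcript of the members, 1 gene of the other SR-related list, 1 neuronal regulator and 4 nuclear-retained RNAs. DESeq2 called 93 genes lower and 51 higher, and leaving out 1 library gave 0 to 10 lower and 0 to 201 higher, with 10 and 201 reached without ethanol 2 and 1 higher without control 1. No member was called in any of these 6 fits. Total-count scaling shifted the median of all genes by -0.084 and turned Hnrnpk to -0.0044 and Luc7l to -0.021. Under it the hnRNP-related median was -0.19 and the decay list median -0.091. With GC and length trends removed the hnRNP-related median was -0.041. Coding entries alone turned Clk1 to 0.51 and gave a Clk median of -0.27. Leaving out single libraries moved the Hnrnp median between -0.17 and 0.036, the core spliceosome median between -0.10 and 0.10, the decay list median between -0.067 and 0.011, and Srrm4 between -0.29 and 0.22. The same fits gave medians of -0.34 to -0.09 for the other SR-related list, -0.23 to -0.07 for the minor spliceosome, -0.23 to -0.09 for the neuronal regulators and -1.002 to -0.55 for the noncoding transcripts of the members. The cause of these shifts was not tested.

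Samples of the same number deviated together with correlations of 0.146, -0.031 and -0.0173, so the numbers were not taken as pairs. With the replicate block 34 members were lower, their median was -0.23 and 0 genes were called. Depth limited no member, since each had at least 466 reads in every library, while the spread between 3 libraries per group limits every difference.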
